A study of Mus musculus with 6 samples.

Results

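The genes described are the nuclear subunit genes of the mitochondrial respiratory chain and of ATP synthase, measured in pressure-loaded mouse hearts with and without extra adenosine A2a receptor. They were chosen by gene symbol: the Nduf subunits of complex I, the Sdh genes of complex II, the Uqcr genes and Cyc1 of complex III, the cytochrome c gene Cycs, the Cox4 to Cox8 subunits of complex IV and the Atp5 subunits of ATP synthase, which is also called complex V. Only array rows annotated with exactly 1 symbol were used, and where a gene had several such rows the brightest on average stood for it. This gave 83 of the 19938 genes with such a row, and these 83 genes had 109 of the 21789 rows. Complex I contributed 35 genes, complex II 4, complex III 9, cytochrome c 1, complex IV 17 and ATP synthase 17. Cox7c, Ndufb4, Ndufb4b and Ndufs5-ps appeared only in rows that carried several symbols and were not counted.

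RNA of hearts was measured on Affymetrix Mouse Gene 1.0 ST arrays, whose probes tile the exons of each transcript. All 6 mice were inbred FVB males, and all had transverse aortic constriction (TAC) at 8 weeks of age, a narrowing of the aorta that loads the left ventricle with pressure. The control group was 3 wild-type mice, and the other group was 3 A2a-R TG littermates, in which a cardiac-specific, inducible transgene over-expresses the adenosine A2a receptor. Hearts were taken 14 weeks after surgery, 1 per array. For the transgene, its promoter, the founder lines and the induction schedule were not stated in the labels, and hearts without TAC were not analysed here. The receptor's own level was not analysed here either, so the genotype labels were not checked against it.

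Complexes I and II take electrons from NADH and succinate and pass them to ubiquinone, complex III passes them on to cytochrome c, and complex IV gives them to oxygen. Complexes I, III and IV pump protons across the inner mitochondrial membrane, and ATP synthase uses their return to make ATP. The heart depends on this process for nearly all of its contractile energy, and genes of oxidative metabolism are known to fall in many forms of heart failure.

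Across all tested rows, limma called 209 at an adjusted p below 0.05, 113 higher and 96 lower in transgenic hearts, which is 0.959% of rows. Leaving out 1 heart at a time lowered this to 124, 84 and 92 calls without wild-type replicates 1, 2 and 3, and to 147, 116 and 121 without transgenic replicates 1, 2 and 3. The deposited values are log2 values from RMA, a normalization that gives all arrays a similar distribution and so removes any shift shared by most transcripts. The spread was still slightly narrower in transgenic arrays, where the SD over all rows was at most 2.066, than in wild-type arrays, where it was at least 2.083. The tissue label was checked on cardiomyocyte markers, whose summed level (log2 of the sum of linear values) ranged over 16.60 to 16.65 in control hearts and 16.62 to 16.66 in transgenic hearts. Of these 8 markers 3 were higher, 5 were lower and 0 passed the test. The hearts were measured in bulk, so fewer cells of a type and less RNA per cell cannot be told apart.

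None of the 83 subunit genes differed between the genotypes at an adjusted p below 0.05 (limma), against 0.959% of all rows. At the looser limit of 0.10, 0 members and 2.18% of all rows passed. An unadjusted p below 0.05 was reached by 5 members, 2 higher and 3 lower in transgenic hearts, or 6.02% against 14.8% of all rows. Without transgenic replicate 3 it was reached by 3 members, and the share of all rows in that fit was not counted. The values of the groups did not overlap in 13 members, or 15.7% against 20.3% of all rows; 9 of these were higher and 4 lower in transgenic hearts. Each share was below that of all rows in this fit of 6 hearts, but was not tested against it. With arrays scaled to equal SD, 26 members had an unadjusted p below 0.05.

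The differences themselves were small. The median difference, transgenic minus wild type, was 0.03 on the log2 scale, with quartiles of -0.01 and 0.08, against a median of -0.01 and quartiles of -0.08 and 0.06 over all rows. By sign alone, 56 members were higher, 26 lower and 1 (Atp5j2) equal, so 67.5% were higher against 44.7% of all rows. The 95% interval of the difference lay within 1.2-fold in either direction for 55 members (66.3%, against 53.2% of all rows) and within 1.5-fold for 82 (98.8%, against 96.8%). Ndufb2 was the exception at 1.5-fold. The median SE of a member's difference was 0.067. Over all 109 rows of these genes the count was also 0 called, with 73 rows higher, 33 lower and 3 equal.

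**Figure D1:**
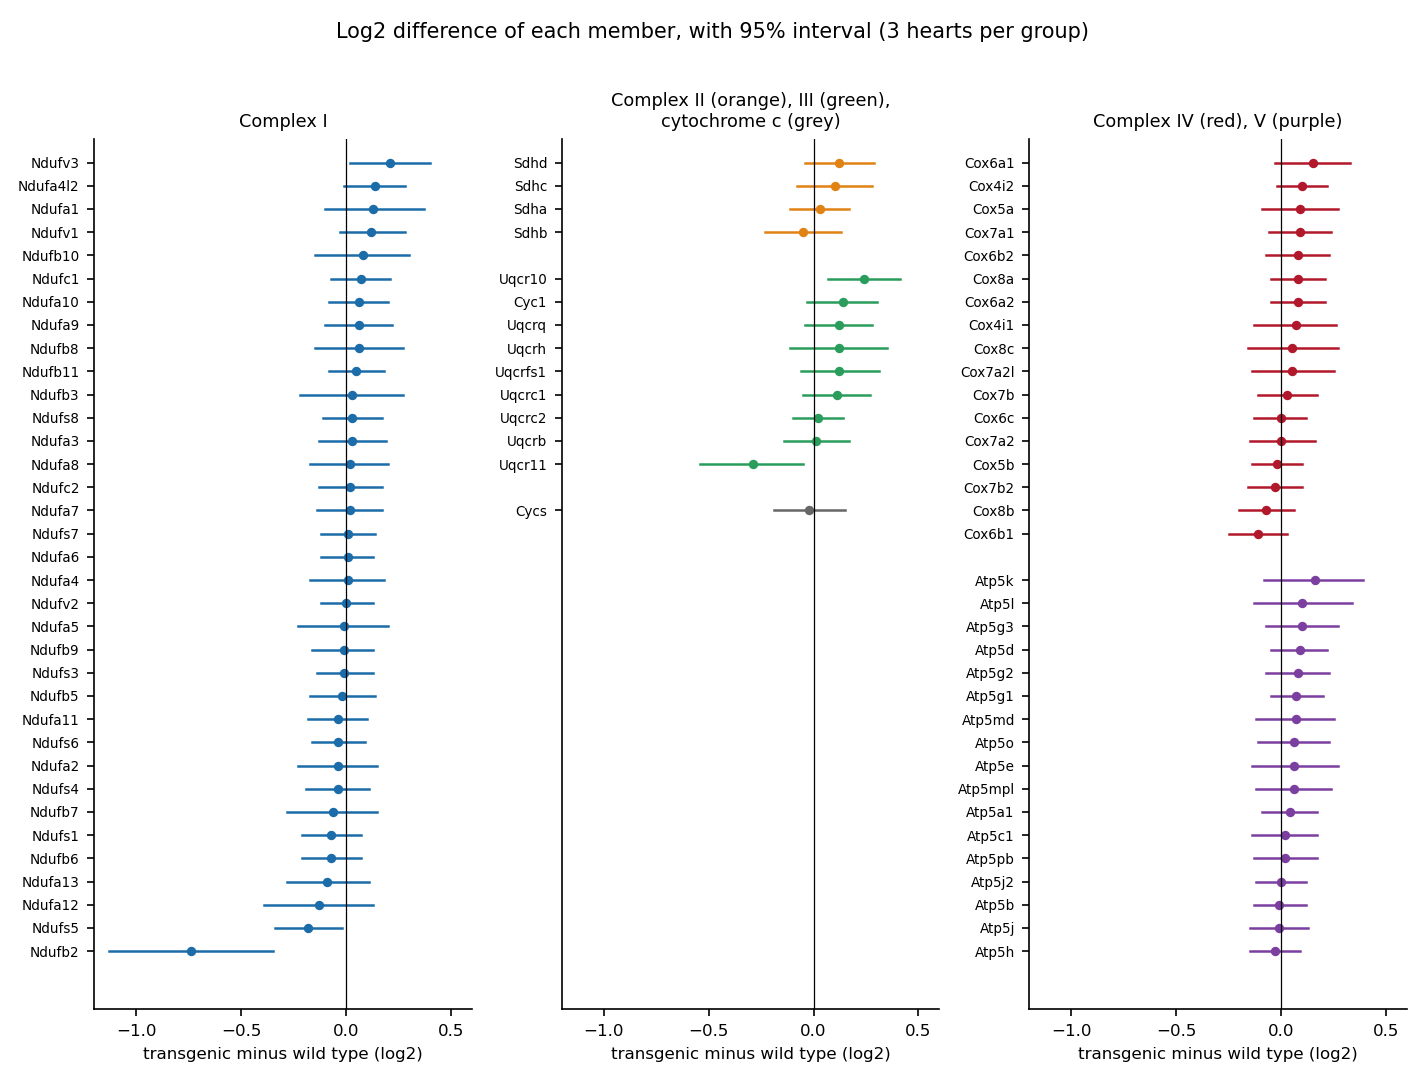
Difference between transgenic and wild-type hearts for each of the 83 genes on the log2 scale (points), with its 95% interval from limma (bars), by complex; 3 hearts per group. Most points lie close to 0, and Ndufb2 lies apart at -0.74.

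The sign count depended on wild-type replicate 1 and on transgenic replicate 2. Wild-type replicate 1 had the lowest value of all 6 hearts in 58 of the 83 members (69.9%), against 16.5% of all rows. The mean deviation of the members from their 6-heart means was -0.09 in wild-type replicate 1, 0.01 in replicate 2 and 0.05 in replicate 3. In transgenic hearts it was -0.01, 0.06 and -0.01. The groups overlapped, and wild-type replicate 1 stood apart below the other 5 hearts. Without wild-type replicate 1, 34 members were higher and 49 lower, with a median of -0.01. Transgenic replicate 2 lay high and also raised the count of higher members. It was the highest transgenic heart in 59 members, and without it 43 were higher and 39 lower, with a median of 0.01.

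**Figure D2:**
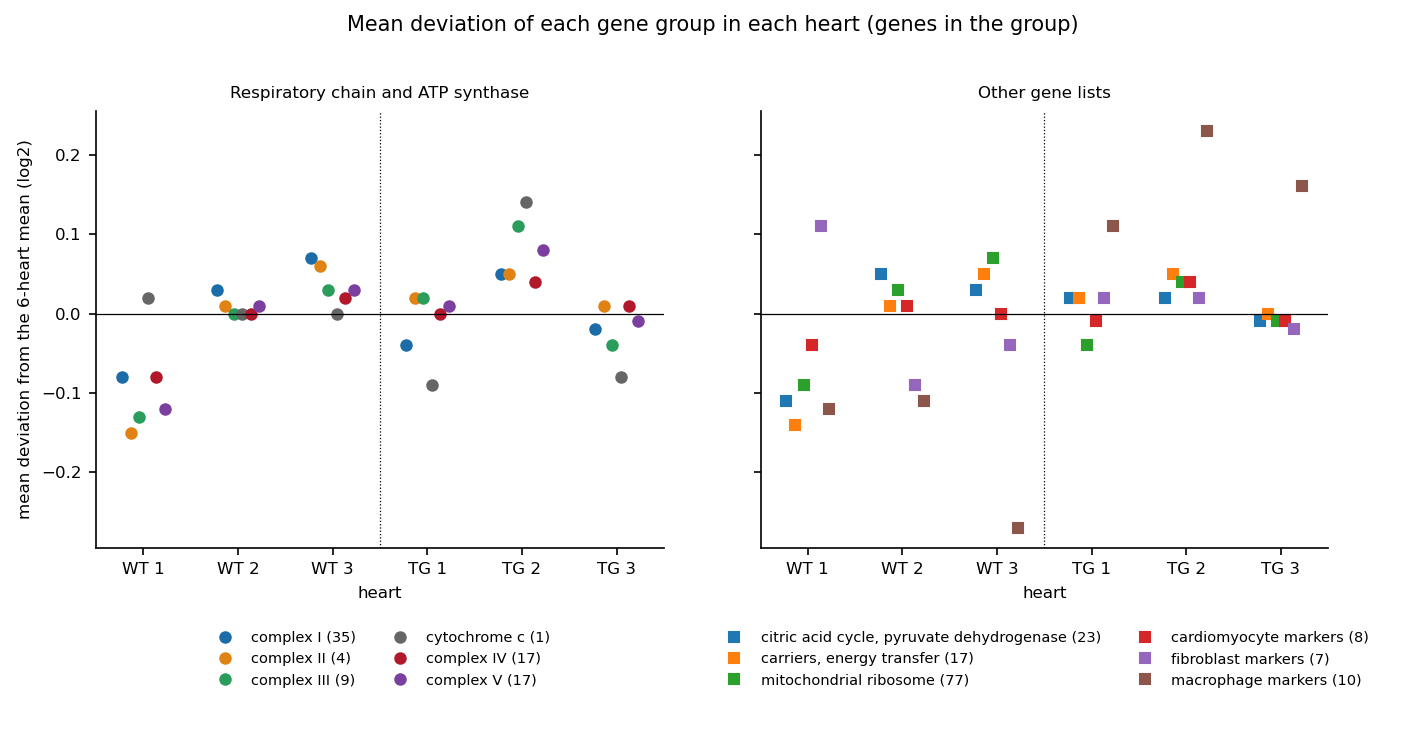
Mean deviation from the 6-heart mean, on the log2 scale, for each complex (left) and for other gene lists (right) in each wild-type (WT) and transgenic (TG) heart; the number of genes is in brackets. Complexes I to V are lowest in WT 1, and macrophage markers lie below 0 in all WT hearts and above 0 in all TG hearts.

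The low position of wild-type replicate 1 was shared by the complexes but not by cytochrome c. It was the lowest wild-type heart in 30 of 35 members of complex I, 4 of 4 of complex II, 8 of 9 of complex III, 11 of 17 of complex IV and 15 of 17 of ATP synthase. Related mitochondrial lists sat low in the same heart, with mean deviations of -0.11 for 23 genes of the citric acid cycle and pyruvate dehydrogenase, -0.14 for 17 carriers and energy transfer genes and -0.09 for 77 mitochondrial ribosomal proteins. Cardiomyocyte markers deviated by -0.04 and fibroblast markers by 0.11 in that heart, and the part of either in the members' values was not tested.

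In complex I, which oxidises NADH, 20 members were higher and 15 lower, with a median of 0.01 and quartiles of -0.04 and 0.05. The groups did not overlap in 3 members (8.57%, against 20.3% of all rows), and 3 had an unadjusted p below 0.05 (8.57%, against 14.8%). The count turned to 7 higher and 28 lower, with a median of -0.04, when wild-type replicate 1 was left out, and to 12 higher and 22 lower, with a median of -0.01, without transgenic replicate 2. With array weights it was 12 higher and 23 lower. Of the core subunits, Ndufs1, which carries iron-sulfur clusters, had log2 values of 11.12, 11.20 and 11.18 in wild-type and 11.09, 11.17 and 11.03 in transgenic hearts. The difference was -0.07 ± 0.06 (SE, n = 3 per group; adjusted p = 0.657). Ndufv1, which binds NADH and the flavin, had 11.95, 12.14 and 12.06 in wild-type and 12.23, 12.15 and 12.14 in transgenic hearts, a difference of 0.12 ± 0.07 (adjusted p = 0.449). For both core subunits the groups met or overlapped, and without wild-type replicate 1 Ndufv1 differed by 0.07.

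Ndufb2, an accessory subunit of the membrane arm, was the member with the largest difference and the smallest p. Its log2 values were 9.23, 9.0 and 9.42 in wild-type and 8.23, 8.87 and 8.33 in transgenic hearts. All transgenic values lay below all wild-type values, with transgenic replicate 2 close to the lowest wild-type heart and the other 2 transgenic hearts far below. The difference was -0.74 ± 0.17 (95% interval -1.13 to -0.35), a size of 1.67-fold, with an adjusted p of 0.105 (limma). The adjusted p ran from 0.0205 to 0.266 over the alternatives and passed the threshold in 2 of them. It was 0.0205 without transgenic replicate 2, where the difference was -0.94 and 0.532% of all rows were called, and 0.0477 without the dimmest 40% of rows, where 3.77% were called. The gene had 1 row, so a second probe set was not there to compare.

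Among the remaining named members of complex I the differences were smaller. Ndufs5, an accessory subunit on the intermembrane side, had 7.86, 7.86 and 7.66 in wild-type and 7.63, 7.63 and 7.59 in transgenic hearts. Its difference was -0.18 ± 0.07 (adjusted p = 0.298), and the groups came close without overlapping. Ndufv3, an accessory subunit of the NADH-binding module, had 8.43, 8.70 and 8.66 in wild-type and 8.75, 8.79 and 8.87 in transgenic hearts. All transgenic values were above all wild-type values, and the difference was 0.21 ± 0.08 (adjusted p = 0.298). This became 0.12 without wild-type replicate 1, its lowest heart. The other 28 members ran from -0.13 (Ndufa12) to 0.13 (Ndufa1), 16 higher and 12 lower. Their groups overlapped in every case, and their smallest adjusted p was 0.607.

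Complex II, which is also the succinate dehydrogenase of the citric acid cycle, had a median of 0.07 over its 4 members. Sdha, the flavoprotein, had 12.22, 12.30 and 12.36 in wild-type and 12.32, 12.37 and 12.29 in transgenic hearts (0.03 ± 0.06). The iron-sulfur subunit Sdhb had 11.78, 11.88 and 12.02 in wild-type and 11.81, 11.93 and 11.79 in transgenic hearts (-0.05 ± 0.08). Both catalytic subunits overlapped between the groups. The membrane anchor Sdhc had 12.51, 12.75 and 12.77 in wild-type and 12.77, 12.78 and 12.78 in transgenic hearts (0.10 ± 0.08, adjusted p = 0.614). The other anchor, Sdhd, had 11.65, 11.86 and 11.86 in wild-type and 11.92, 11.88 and 11.94 in transgenic hearts (0.12 ± 0.07, adjusted p = 0.481). Sdhd did not overlap between the groups, and in both anchors wild-type replicate 1 lay well below the other 5 hearts. Without that heart Sdhc differed by 0.02 and Sdhd by 0.05, and 2 members were higher and 2 lower, with a median of 0.01.

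Complex III, the ubiquinol-cytochrome c reductase, had the highest median of the complexes, 0.12 with quartiles of 0.02 and 0.12, and 8 of its 9 members were higher. The groups did not overlap in 3 members, 2 higher and 1 lower (33.3%, against 20.3% of all rows). Without wild-type replicate 1 the median was 0.05, with 7 members higher and 2 lower. Uqcr10, a small subunit, had 10.60, 10.70 and 10.74 in wild-type and 10.96, 11.00 and 10.80 in transgenic hearts. All transgenic values lay above all wild-type values. The difference was 0.24 ± 0.07 (95% interval 0.07 to 0.41), with an adjusted p of 0.194 (limma), and 0.0711 to 0.375 over the alternatives.

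Uqcr11, another small subunit, ran against the rest of the complex. Its values were 11.88, 11.88 and 12.07 in wild-type and 11.62, 11.87 and 11.46 in transgenic hearts, a difference of -0.29 ± 0.11 (95% interval -0.54 to -0.05, adjusted p = 0.266). Transgenic replicate 2 was at the wild-type level, and the other 2 transgenic hearts were lower. A second row of Uqcr11 had 11.01, 11.02 and 11.17 in wild-type and 10.65, 11.02 and 10.62 in transgenic hearts, and differed by -0.30 (adjusted p = 0.262). The same transgenic heart stood at the wild-type level there too.

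Cyc1, Uqcrfs1 and Uqcrc1, the core subunits of complex III named here, were slightly higher on average in transgenic hearts. Cyc1, cytochrome c1, had 12.28, 12.45 and 12.46 in wild-type and 12.48, 12.61 and 12.51 in transgenic hearts, without overlap (0.14 ± 0.07, adjusted p = 0.426). The difference was 0.08 without wild-type replicate 1. The Rieske iron-sulfur protein Uqcrfs1 had 9.51, 9.68 and 9.73 in wild-type and 9.73, 9.87 and 9.69 in transgenic hearts (0.12 ± 0.08, adjusted p = 0.522). The core protein Uqcrc1 had 12.34, 12.50 and 12.53 in wild-type and 12.57, 12.61 and 12.51 in transgenic hearts (0.11 ± 0.07, adjusted p = 0.526). In these last 2 genes the groups overlapped, and their differences were 0.06 and 0.05 without wild-type replicate 1. That of Uqcrfs1 was 0.07 without transgenic replicate 2. The other 4 members ran from 0.01 (Uqcrb) to 0.12 (Uqcrh), with Uqcrc2 at 0.02.

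Cycs, the soluble cytochrome c that carries electrons from complex III to complex IV, had 13.36, 13.34 and 13.34 in wild-type and 13.25, 13.48 and 13.26 in transgenic hearts. The wild-type hearts were nearly equal, and the transgenic hearts lay on both sides of them. The difference was -0.02 ± 0.07 (95% interval -0.19 to 0.15, adjusted p = 0.946), and its 3 rows differed by -0.06 to 0.01.

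**Figure D3:**
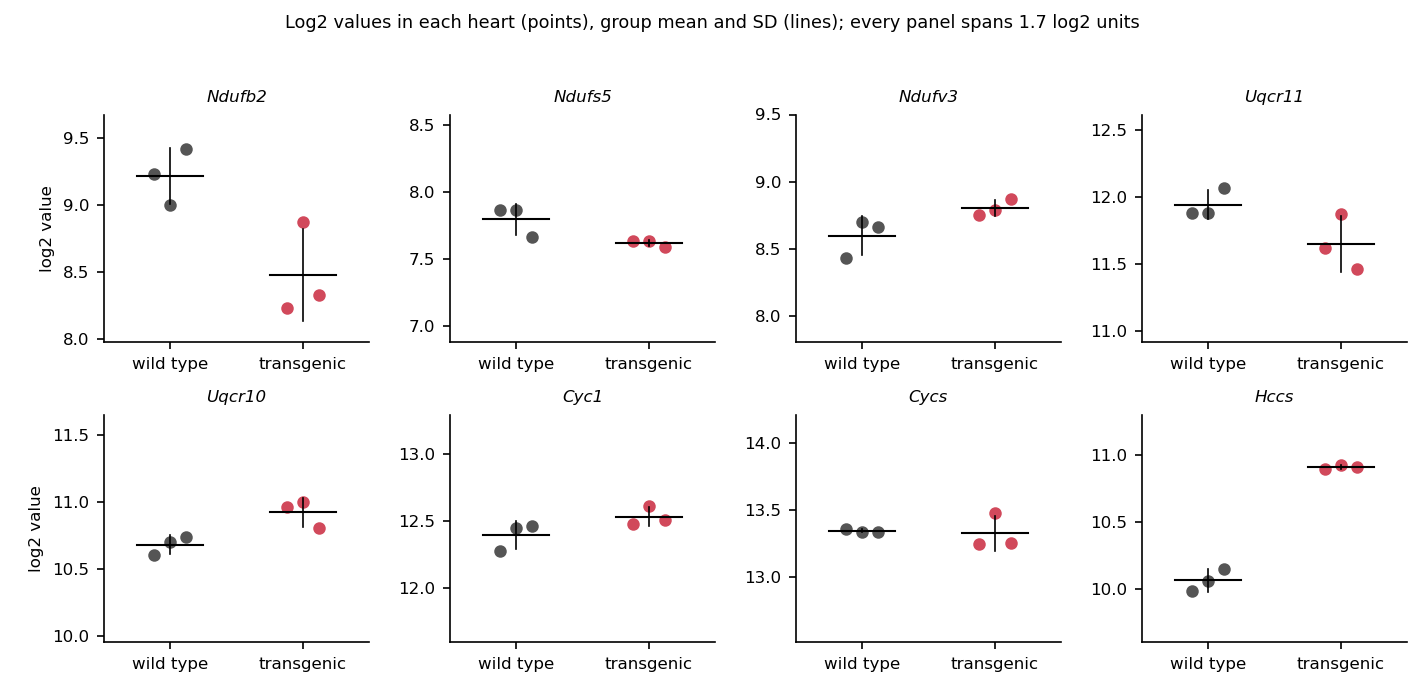
Log2 values of 8 genes in each heart (points), with the group mean and SD (lines); every panel spans the same log2 range. Hccs, which is not a subunit, is the gene whose groups are furthest apart. Transgenic replicate 2 is the highest transgenic heart in Ndufb2, Uqcr11, Uqcr10, Cyc1, Cycs and, narrowly, Hccs.

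The promoter letters of 67 of the 83 genes were in the RefSeq table used here (assembly GRCm38.p6, which is C57BL/6J and not FVB). Motifs of 4 factors known to act on mitochondrial genes were searched on both strands of the 300 bases around each start, and no motif's letters contain another's. The NRF1 letters GCGCANGCG were present in 20 of 67 members (29.9%), against 7.03% of 27025 genes with a promoter in the table. The ETS letters CCGGAAG, which GABP binds, were in 17 (25.4%, against 9.93%), the YY1 letters AAGATGGC in 10 (14.9%, against 3.19%) and the estrogen-related receptor letters AAGGTCA in 7 (10.4%, against 5.38%). A match describes letters and is not evidence of binding. The 250 bases before the start are printed for Ndufb2, Uqcr10 and Uqcr11, the members of smallest p, and for Cycs; capitals mark a motif match. They lie at chr6:39592315-39592564 on the plus strand (Ndufb2), and on the minus strand at chr11:4704345-4704594 (Uqcr10), chr10:80406822-80407071 (Uqcr11) and chr6:50566570-50566819 (Cycs).
Ndufb2: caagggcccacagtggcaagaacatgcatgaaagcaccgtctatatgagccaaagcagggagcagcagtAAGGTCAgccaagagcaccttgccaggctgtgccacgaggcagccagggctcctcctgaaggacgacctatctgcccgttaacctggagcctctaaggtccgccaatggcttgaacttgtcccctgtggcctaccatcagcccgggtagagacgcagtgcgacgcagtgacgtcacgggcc
Uqcr10: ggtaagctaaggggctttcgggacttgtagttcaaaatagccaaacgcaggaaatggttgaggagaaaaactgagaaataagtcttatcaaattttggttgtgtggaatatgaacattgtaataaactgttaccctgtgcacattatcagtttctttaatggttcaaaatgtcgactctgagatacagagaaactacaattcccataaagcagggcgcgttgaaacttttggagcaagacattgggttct
Uqcr11: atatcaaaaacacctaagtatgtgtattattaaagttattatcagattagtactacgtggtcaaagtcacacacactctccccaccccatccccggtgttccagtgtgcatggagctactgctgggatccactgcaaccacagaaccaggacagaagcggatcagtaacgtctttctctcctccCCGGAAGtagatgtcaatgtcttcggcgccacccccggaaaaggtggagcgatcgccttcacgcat
Cycs: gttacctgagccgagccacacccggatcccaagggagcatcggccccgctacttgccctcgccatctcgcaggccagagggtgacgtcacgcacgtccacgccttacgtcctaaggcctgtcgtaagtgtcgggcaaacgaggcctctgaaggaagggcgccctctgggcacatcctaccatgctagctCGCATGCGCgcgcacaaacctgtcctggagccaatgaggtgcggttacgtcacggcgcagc
The estrogen-related receptor letters stood 181 to 175 bases before the start of Ndufb2, the ETS letters 66 to 60 bases before that of Uqcr11, and the NRF1 letters 61 to 53 bases before that of Cycs. A further NRF1 match of Uqcr11 lay at least partly beyond the printed bases, and its position was not recorded. The window of Uqcr10 held none of the 4 motifs.

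Complex IV, cytochrome c oxidase, had 12 members higher and 5 lower, with a median of 0.05 and quartiles of 0.00 and 0.08. The groups did not overlap in 4 members, 3 higher and 1 lower (23.5%, near the 20.3% of all rows), and 0 members had an unadjusted p below 0.05, against 14.8%. Without wild-type replicate 1 the median was 0.01, with 9 higher and 8 lower. Cox4i1, the main form of the largest nuclear subunit, had 11.61, 11.82 and 11.87 in wild-type and 11.77, 11.93 and 11.80 in transgenic hearts (0.07 ± 0.08). Cox5a had 11.65, 11.87 and 11.92 in wild-type and 11.86, 11.93 and 11.92 in transgenic hearts (0.09 ± 0.08). Both overlapped between the groups.

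Several complex IV subunits have a form enriched in heart and skeletal muscle and a form found in most tissues. Cox6a2, Cox7a1 and Cox8b are the muscle forms, and Cox6a1, Cox7a2 and Cox8a their counterparts. Cox6a1 had 9.71, 9.89 and 9.96 in wild-type and 9.93, 10.03 and 10.05 in transgenic hearts (0.15 ± 0.08, adjusted p = 0.424). Cox6a2 had 12.99, 13.04 and 13.08 in wild-type and 13.14, 13.10 and 13.11 in transgenic hearts (0.08 ± 0.06). The transgenic mean was slightly above the wild-type mean in both forms, without overlap in Cox6a2, and that of Cox6a1 was 0.08 above without wild-type replicate 1. Cox7a1 had 13.34, 13.49 and 13.40 in wild-type and 13.47, 13.58 and 13.45 in transgenic hearts (0.09 ± 0.07). Cox7a2 had 11.05, 11.15 and 11.06 in wild-type and 11.07, 11.19 and 11.01 in transgenic hearts, a difference of 0.00 ± 0.07. Both overlapped.

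The Cox8 forms differed in sign. Cox8a had 11.38, 11.37 and 11.41 in wild-type and 11.46, 11.51 and 11.43 in transgenic hearts (0.08 ± 0.05). Cox8b had 13.25, 13.28 and 13.23 in wild-type and 13.21, 13.22 and 13.12 in transgenic hearts (-0.07 ± 0.06). Neither overlapped between the groups. Cox8a minus Cox8b within a heart was -1.87, -1.91 and -1.82 in wild-type and -1.75, -1.71 and -1.69 in transgenic hearts, a shift of 0.15. This is a difference of probe values and not the ratio of the transcripts. The exact two-sided permutation p was 0.1, which is the smallest that 3 against 3 hearts allow, and 0.45 after adjustment over the 9 paralog pairs compared. Cox7a1 minus Cox7a2 gave 2.29, 2.34 and 2.34 in wild-type and 2.40, 2.39 and 2.44 in transgenic hearts, a shift of 0.09 with the same exact p of 0.1 and 0.45 adjusted.

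**Figure D4:**
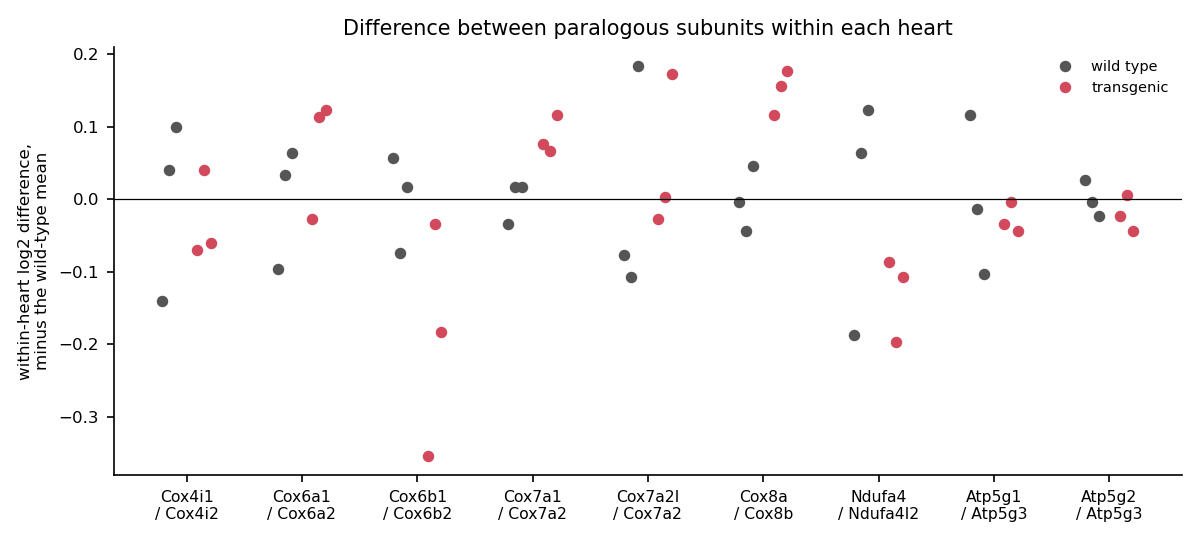
Difference between the log2 values of paralogous subunits within each heart, set to a wild-type mean of 0, for 9 pairs; grey points are wild-type and red points transgenic hearts. Cox7a1/Cox7a2 and Cox8a/Cox8b are the pairs whose groups do not overlap.

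The other 7 pairs overlapped between the groups, with shifts of -0.19 (Cox6b1 and Cox6b2) to 0.07 (Cox6a1 and Cox6a2) and exact p from 0.2 to 0.9. Cox4i2, a form known for its induction at low oxygen, had 8.00, 8.03 and 8.02 in wild-type and 8.09, 8.14 and 8.11 in transgenic hearts, without overlap (0.10 ± 0.05, adjusted p = 0.448). Cox6b1, which faces the intermembrane space, had 12.47, 12.41 and 12.51 in wild-type and 12.29, 12.42 and 12.35 in transgenic hearts (-0.11 ± 0.06, adjusted p = 0.458). Its testis form Cox6b2 had 6.16, 6.23 and 6.24 in wild-type and 6.39, 6.20 and 6.28 in transgenic hearts (0.08 ± 0.07). Both Cox6b forms overlapped. Cox7a2l, which helps complexes III and IV join into supercomplexes, had 9.0, 9.07 and 9.27 in wild-type and 9.07, 9.22 and 9.21 in transgenic hearts (0.05 ± 0.08). The other 5 members of complex IV ran from -0.03 (Cox7b2) to 0.05 (Cox8c).

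Ndufa4, named as a complex I gene but now placed in complex IV, had 11.64, 11.80 and 11.87 in wild-type and 11.74, 11.74 and 11.85 in transgenic hearts (0.01 ± 0.07). Its paralog Ndufa4l2, a known target of hypoxia-inducible factor, had 8.00, 7.91 and 7.92 in wild-type and 8.00, 8.11 and 8.13 in transgenic hearts (0.14 ± 0.06, adjusted p = 0.357). The groups of Ndufa4l2 met at 8.00, and both of these genes were counted under complex I.

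In ATP synthase, 13 members were higher, 3 lower and 1 equal, with a median of 0.06 and quartiles of 0.02 and 0.08. The groups did not overlap in 2 members (11.8%, against 20.3% of all rows). Without wild-type replicate 1 the median was 0.01, with 9 higher and 8 lower. The catalytic head subunits were nearly level: Atp5b, the beta subunit, had 13.78, 13.78 and 13.80 in wild-type and 13.81, 13.78 and 13.75 in transgenic hearts (-0.01 ± 0.05, 95% interval -0.13 to 0.12). Atp5a1, the alpha subunit, had 13.09, 13.16 and 13.17 in wild-type and 13.19, 13.20 and 13.15 in transgenic hearts (0.04 ± 0.06). Both overlapped between the groups. Atp5d, the delta subunit of the central stalk, had 13.63, 13.75 and 13.73 in wild-type and 13.78, 13.80 and 13.79 in transgenic hearts, without overlap (0.09 ± 0.06).

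The c subunit, which forms the rotating membrane ring, is encoded by 3 genes whose mature proteins are the same. Atp5g1 had 13.73, 13.78 and 13.75 in wild-type and 13.82, 13.85 and 13.81 in transgenic hearts (0.07 ± 0.05). Atp5g2 had 12.26, 12.41 and 12.45 in wild-type and 12.45, 12.48 and 12.43 in transgenic hearts (0.08 ± 0.07). Atp5g3 had 12.70, 12.88 and 12.94 in wild-type and 12.94 in each transgenic heart (0.10 ± 0.07). The groups of Atp5g1 did not overlap, those of Atp5g2 did, and those of Atp5g3 met at 12.94; its difference was 0.03 without wild-type replicate 1. Of the remaining subunits, Atp5k, a membrane subunit linked to dimers of the enzyme, had the largest difference. It had 9.12, 9.40 and 9.53 in wild-type and 9.52, 9.55 and 9.45 in transgenic hearts (0.16 ± 0.10, adjusted p = 0.526). The groups overlapped, and the difference was 0.04 without wild-type replicate 1, the lowest heart, and 0.25 without wild-type replicate 3. Atp5h, a stalk subunit, had 12.71, 12.67 and 12.64 in wild-type and 12.62, 12.67 and 12.64 in transgenic hearts (-0.03 ± 0.05). The other 9 members ran from -0.01 (Atp5j) to 0.10 (Atp5l).

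**Figure D5:**
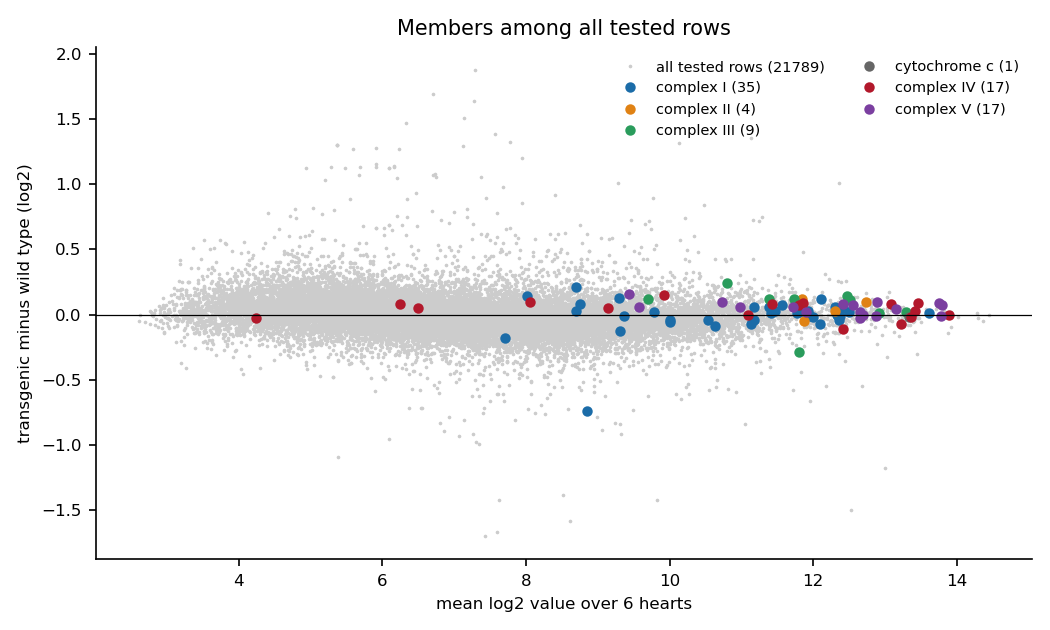
Difference between transgenic and wild-type hearts (log2) against the mean log2 value over 6 hearts for all 21789 tested rows (grey) and the 83 members (coloured by complex). The members lie mostly among the bright rows, and Ndufb2 is the member furthest from 0.

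The members lie among the bright rows of the array, with a median log2 value of 11.81 against 7.14 over all rows. Of the 83, 64 had a mean of 10 or more, as had 1861 of the 21789 rows. This describes the brightness of probe sets, which also depends on their probes. The members' differences moved with the scaling of the arrays. When each array was scaled to the same SD, 74 members were higher and 9 lower, and the median became 0.11. Of the members, 26 then had an unadjusted p below 0.05 and 0 were called. The share of all rows with such a p was not counted under this scaling. The scaling widens the narrower transgenic arrays about their means, which by itself raises bright rows in them relative to wild type. After cyclic loess, which removes differences between arrays that depend on brightness, 59 were higher and 24 lower, with a median of 0.04.

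Among other genes of the pathway, the gene that passed the test was Hccs, which attaches heme to cytochromes c and c1. Its log2 values were 9.98, 10.06 and 10.15 in wild-type and 10.89, 10.92 and 10.91 in transgenic hearts. Every transgenic heart was far above every wild-type heart. Hccs rose by 0.84 ± 0.06, or 1.79-fold, in transgenic hearts (limma adjusted p = 0.00146), and it was called under all alternatives run, with adjusted p from 3.81e-05 to 0.0152. The genes of its substrates, Cycs at -0.02 and Cyc1 at 0.14, did not pass. Hccs was 1 of 30 measured assembly factors of complexes II to V, of which 11 were higher and 19 lower (median -0.03). Of the others, Lyrm7, a chaperone of the Rieske protein, differed by -0.24 (adjusted p = 0.165), and Cox17, a copper chaperone, by 0.19 (adjusted p = 0.253).

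None of the other pathway lists held a gene called by limma, against 0.959% of all rows. An unadjusted p below 0.05, which 14.8% of all rows had, was reached by 6 of 27 biogenesis regulators, 4 of 77 ribosomal proteins, 2 of 17 complex I assembly factors and 0 to 1 genes of each remaining list. Of 17 complex I assembly factors 4 were higher and 13 lower (median -0.05, and -0.09 without wild-type replicate 1), among them Acad9 at -0.17 and Ndufaf5 at -0.25. Of 23 genes of the citric acid cycle and pyruvate dehydrogenase 14 were higher and 9 lower (median 0.04, and -0.03 without wild-type replicate 1). Of 17 carriers and energy transfer genes 13 were higher and 2 lower (median 0.04, and 0.00 without that heart), with the ADP/ATP carrier Slc25a5 at 0.13. The 77 mitochondrial ribosomal proteins split 37 to 37, with 3 equal and a median of 0.00, and -0.06 without wild-type replicate 1. Of 4 subunits or regulators outside the symbol patterns 2 were higher and 2 lower (median -0.01). Of 28 genes of import, inner membrane organisation and dynamics 8 were higher and 19 lower (median -0.02).

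Regulators of mitochondrial biogenesis, 27 genes, were higher in 9 and lower in 18 cases, with a median of -0.06. The groups did not overlap in 9 of the 27, a larger share than the 20.3% of all rows, and the excess was not tested. Ppargc1a, the coactivator PGC-1alpha, had 11.42, 11.24 and 11.42 in wild-type and 11.78, 11.67 and 11.53 in transgenic hearts. Its transgenic values all lay above its wild-type values (0.30 ± 0.08, adjusted p = 0.160). Esrrb, an estrogen-related receptor, differed by -0.26 (adjusted p = 0.189), and Gabpb1, a subunit of GABP, by -0.18 (adjusted p = 0.242).

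Subunits encoded by mitochondrial DNA had a row of their own for ND3 of complex I and COX2 of complex IV. ND3 had 13.60, 13.60 and 13.47 in wild-type and 13.53, 13.78 and 13.44 in transgenic hearts, a difference of 0.03 ± 0.09. COX2 had 13.67, 13.75 and 13.66 in wild-type and 13.64, 13.89 and 13.67 in transgenic hearts, a difference of 0.04 ± 0.08. In both, transgenic replicate 2 was the highest heart and the groups overlapped. This heart was also the highest for Cycs, Uqcr10 and Cyc1.

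Some markers of other cell types differed with genotype. All 10 macrophage markers were higher in transgenic hearts, with a median difference of 0.29 and 1 called, Lgals3; after cyclic loess 4 were called. Their summed log2 level ranged over 11.97 to 12.18 in control hearts and over 12.43 to 12.52 with the transgene. Of 7 smooth muscle and pericyte markers 4 were higher and 3 lower, with summed levels of 12.81 to 12.96 and 13.10 to 13.22. Acta2 rose by 0.73 (limma adjusted p = 0.0106). The rest of these markers ran from -0.07 (Cnn1) to 0.10 (Pdgfrb), with overlapping groups, so the higher sum reflected mainly Acta2. Of the red blood cell markers, Alas2, which makes heme precursor in red cells, fell by 0.77 (limma adjusted p = 0.00486), and Slc4a1 was at -0.02, with summed levels of 9.05 to 9.09 and 8.44 to 8.57. Fibroblast markers had a median difference of 0.00 and summed levels of 13.98 to 14.11 and 13.96 to 14.04, and 8 skeletal muscle markers had a median of 0.05 and levels of 10.27 to 10.47 and 10.26 to 10.45. All 6 atrial markers were lower, with summed levels of 13.56 to 14.25 and 12.66 to 13.23. Nppa, the brightest of them and most of the summed level, was called at -1.18. The other 5 ran from -0.18 to -0.01, with overlapping groups and limma adjusted p of 0.689 to 0.988. Of the endothelial markers 6 of 7 were lower, with 0 called. The part of these markers in the members' small differences was not tested.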

How the data were processed

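Total RNA from 6 hearts was isolated with Trizol, and 100 ng was labelled with biotin, per the labels' protocols. The authors deposited log2 values made with RMA (background correction, quantile normalization and probe summary), per the submitters' processing notes, which also name Partek. Of these tools no version or setting, and no genome build, is given in the sources used here. The table has 28853 rows with values from 2.51 to 14.69. Rows with several gene symbols (1621) or none (5443) were not tested.

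Each of 21789 rows was fitted with limma 3.58.1 in R 4.3.3 (lmFit and eBayes, 4.1 prior degrees of freedom, no covariate) as transgenic minus wild type, with Benjamini-Hochberg adjustment of p over all of these rows and a threshold of 0.05. Errors are moderated SEs with 95% intervals from that fit; 3 arrays per group limit the precision. Paralog pairs were compared by exact permutation of the 6 hearts. Alternatives were other normalizations, an equal SD per array, no dim rows, another variance prior, array weights, a replicate block, other row sets and each heart left out. The code was tested on simulated data.

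The members, pathway lists and markers were chosen with earlier results of these data known. Values in every heart are given for called members, for the 3 of smallest p and the largest difference in each direction in a complex, for core subunits and for paralog pairs; of the pathway lists, called genes and up to 3 of smallest p are named. ND3 and COX2 were named as the measured members of their list. For hearts with equal replicate numbers in the titles, the deviations from the group mean correlated at 0.155, -0.0113 and -0.104. Hearts with unequal numbers gave -0.207 to 0.234. With deviations taken from means of 3 hearts, these values cannot exclude a pairing. The labels tie equal numbers to no shared litter or day. The descriptions number the wild-type hearts differently, and pairs by those numbers were not tested.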

Additional observations from a re-analysis of the deposited data

How the results depend on the processing

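The number of called rows was 209, and it became 493 without the dimmest 40% of rows, 579 with a trended and robust prior, 476 at an adjusted p below 0.10, 97 with the replicate block and 84 to 147 with 1 heart left out. The number of called members was 0, and it became 1 (Ndufb2) when the dimmest 40% were dropped, and ranged over 0 to 1 with 1 heart left out. With arrays scaled to equal SD, the median difference was 0.11 over the members, 0.08 for complex I, 0.16 for complex II, 0.20 for complex III, 0.09 for cytochrome c, 0.11 for complex IV and 0.14 for ATP synthase. With 1 heart left out, that of complex I ran from -0.04 to 0.04, that of complex II from 0.01 to 0.11, that of complex III from 0.05 to 0.14, that of cytochrome c from -0.09 to 0.02, and those of complex IV and of ATP synthase from 0.01 to 0.09. The replicate block, by the numbers in the titles, gave Ndufb2 an adjusted p of 0.192 (limma) and changed no call among the members. The sign of members that were not called changed in 25 without wild-type replicate 1, 18 with equal SD, 14 without transgenic replicate 2, 12 with array weights and 0 to 10 under the other alternatives. Without Ndufb2, an alternative chosen after seeing the data, the median of the members stayed at 0.03. The depth behind an array value is unknown, and very bright and very dim rows may be compressed, which limits the size of differences that can be seen in these bright genes. Apart from what scaling to an equal SD does to bright rows, the cause of these shifts was not tested.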
